A study of Mus musculus with 64 samples.

Results

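Of 64 RNA-seq libraries made from punches of the mouse ventral tegmental area (VTA), 4 held little message of Th, the gene of tyrosine hydroxylase. They are the libraries with Th under 8 log2 CPM (CPM is the count of a gene scaled to the total of its library), and they are compared here with the other 60. They came from mouse 3 (labelled wildtype, given valproate), mouse 26 and mouse 58 (both labelled mutant, given valproate) and mouse 34 (labelled mutant, given the vehicle of valproate). In these 4 libraries most other dopamine neuron genes were low as well. Several neuropeptide and transcription factor genes of the hypothalamus had a higher mean than in the other 60. So did transcription factor genes of forebrain GABA neurons and most genes of motile cilia. The 4 libraries were not alike: mouse 26 and mouse 58 had the least Th and the most of the lateral hypothalamic peptide Pmch, and mouse 34 had the most Th and the least Pmch.

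Dopamine neurons of the VTA make dopamine from tyrosine through tyrosine hydroxylase and aromatic amino acid decarboxylase, load it into vesicles with the monoamine transporter Slc18a2 and take it back up through Slc6a3. The VTA lies in the ventral midbrain, directly behind the mammillary nuclei and the posterior and lateral hypothalamus, and below the thalamus. Neurons that make melanin-concentrating hormone (Pmch) or orexin (Hcrt) have their cell bodies in the lateral hypothalamus, and the ventricles of the brain are lined by ependymal cells with motile cilia.

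The mice were adult males of strain 129S1/Svlm with a Wildtype label or a label for Clock delta 19, a mutation in the circadian gene Clock. They received valproate (VPA, a mood stabiliser that also inhibits histone deacetylases), ACY957 (a histone deacetylase inhibitor) or the vehicle of either for 14 days, and brains were taken at ZT6 (6 h after lights on), about 24 h after the last dose. Bilateral punches of 1 mm were centred on the VTA, and each library is 1 mouse. By the labels, the wildtype groups held 8 VPA, 3 VPA vehicle, 8 ACY957 and 5 ACY957 vehicle libraries, and the mutant groups held 8, 13, 8 and 11, whereas the design text gives 8 mice in each group. The gene counts do not read single exons, so they do not check the Clock allele. Neither the position of a punch nor the number of punches per mouse is given in the labels.

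The 64 libraries held 20136693 to 37475292 gene counts (median 25848064), and the 4 with low Th held 31676269 in mouse 3, 25720078 in mouse 26, 25364847 in mouse 34 and 28212262 in mouse 58. Values for the 4 are given in this order (mouse 3, 26, 34, 58) throughout. Their scaling factors (TMM, a correction for library composition) were 1.01 to 1.02, inside the 0.979 to 1.05 of the other 60. The median difference over all 15634 genes between the 4 and the 60 was 0.00 on the log2 scale. By treatment label, 3 of the 16 VPA libraries, 1 of the 16 VPA vehicle libraries and 0 of the 32 ACY957 or ACY957 vehicle libraries had low Th. The part of the treatment in the values below was not tested.

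Th itself, which lies on chromosome 7 (142892752 to 142931128, minus strand, mm10), was at 97.96, 44.2, 202 and 26.3 CPM in the 4, against 304 to 1716 CPM (median 1030.5) in the other 60. On the log2 scale that is 6.62, 5.47, 7.66 and 4.72 in the 4 and 8.25 to 10.7 in the 60. The member nearest the threshold was mouse 34 at 7.66, and the nearest libraries outside it were VPA mutant replicate 7 at 8.25 and VPA vehicle mutant replicate 2 at 8.36. Th chose the libraries, so differences between the 4 and the 60 are given without a test. Whether a gene varied with Th was tested apart from this, inside the other 60, as the slope of its log2 level on that of Th with a mean for each of the 8 label groups (edgeR quasi-likelihood test, adjusted over 15633 genes). Slopes are given ± SE in log2 CPM per log2 CPM of Th. In these bulk punches, fewer cells of a type and less RNA per cell cannot be told apart.

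**Figure D1:**
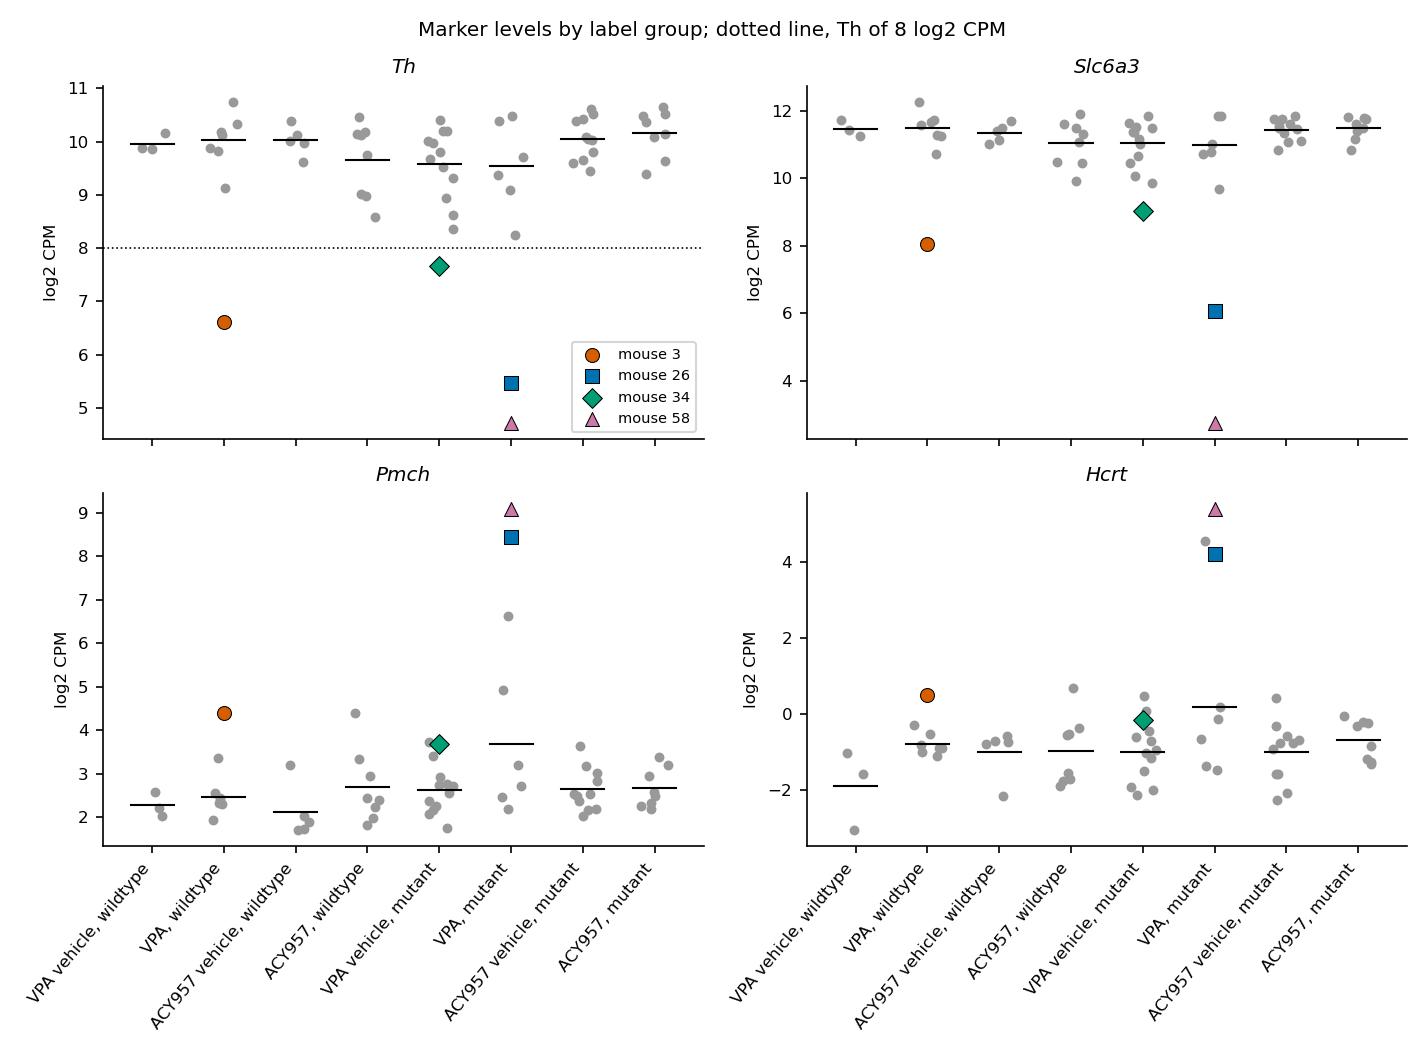
Levels of Th, Slc6a3, Pmch and Hcrt (log2 CPM, y axes) in the 64 libraries, by treatment and genotype label (x axis). Grey points are the other 60 libraries, black bars their mean in each group, coloured symbols the 4 libraries with low Th, and the dotted line the threshold of 8. The 4 lie below all other libraries in Th and Slc6a3, and mouse 26 and mouse 58 lie above all others in Pmch.

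The enzymes and transporters of dopamine were low together. All 7 genes of this list were below all 60 other libraries in all 4, a pattern that 96 of 15634 genes (0.614%) had. Since Th is one of them and chose the libraries, these are values only. Slc6a3, the plasma membrane dopamine transporter, was at 269, 66.4, 524 and 6.66 CPM in the 4 and 827 to 4927 CPM (median 2729) in the 60. As a share of the median of the 60, Th was at 9.51%, 4.29%, 19.6% and 2.55%, and Slc6a3 at 9.85%, 2.44%, 19.2% and 0.244%. In mouse 3 and mouse 34 the transporter and the enzyme were at a similar share, and in mouse 58 the transporter's share was much the smaller.

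Slc18a2, the vesicular monoamine transporter, was at 112, 52.5, 224 and 24.98 CPM against 307 to 1906 CPM (median 1004). Gch1, which makes the cofactor of tyrosine hydroxylase, was at 9.85, 4.96, 17.8 and 3.15 CPM against 27.4 to 132 CPM (median 78.8). Slc10a4, a vesicle membrane protein of monoamine and cholinergic neurons, was at 25.5, 10.3, 45.4 and 5.81 CPM against 63.3 to 361 CPM (median 219). These genes ranked the 4 libraries in the same way as Th, with mouse 34 highest, then mouse 3, mouse 26 and mouse 58. Ddc, the decarboxylase, and Aldh1a1, an aldehyde dehydrogenase of part of the dopamine neurons, kept larger shares. Ddc was at 143, 69.3, 259 and 63.3 CPM against 305 to 1556 CPM (median 838). Aldh1a1 was at 213, 121, 247 and 123 CPM against 299 to 2019 CPM (median 869). In mouse 26 and mouse 58, whose Th was at 4.29% and 2.55% of the median of the 60, Aldh1a1 was still at 13.9% and 14.1%.

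Within the other 60, all 6 of these genes that could be tested rose with Th, against 11.2% of all genes (1754 of 15633 rose and 1676, or 10.7%, fell, edgeR). The slope was 0.92 ± 0.03 for Slc6a3 (adjusted p = 6.98e-34), 0.97 ± 0.02 for Slc10a4 (adjusted p = 2.13e-39) and 0.83 ± 0.02 for Ddc (adjusted p = 7.29e-37), all by edgeR. A slope near 1 means that a gene doubled for each doubling of Th. Across the 60, Th and Slc6a3 had a Pearson r of 0.976 and a Spearman rho of 0.955 (permutation p = 1e-05 for both, the smallest that 100000 resamples can give, adjusted p = 1.33e-05 and 4e-05 over 4 relations), and r was 0.968 without the 2 libraries farthest from the median Th.

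The transcription factors of dopamine neurons were low to unequal degrees. En1 and En2, homeobox genes of the midbrain that dopamine neurons need to survive, were below all 60 in all 4 libraries. En1 was at 3.75, 0.915, 7.62 and 0.350 CPM against 8.73 to 67.97 CPM (median 42.4), or 8.83%, 2.16%, 17.97% and 0.826% of the median of the 60. En2 was at 1.80, 1.14, 3.60 and 0.631 CPM against 4.12 to 28.01 CPM (median 17.1). Pitx3, a homeobox factor needed by part of the dopamine neurons, was at 1.11, 0.534, 1.64 and 0.175 CPM against 1.60 to 12.4 CPM (median 6.99), below all 60 in 3 of the 4 and just inside the range in mouse 34. The mean log2 differences of these 3 factors were -4.27, -3.28 and -3.14, against -3.75 for Th.

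The other 6 factors lay nearer to the 60. Foxa1 and Foxa2 encode forkhead factors of the floor plate, from which dopamine neurons arise. Foxa1 was at 15.5, 10.6, 14.6 and 8.90 CPM against 12.6 to 45.9 CPM (median 33.9), and Foxa2 at 9.26, 2.33, 17.7 and 6.45 CPM against 14.1 to 31.8 CPM (median 22.5). Foxa2 was lowest in mouse 26 and inside the range of the 60 in mouse 34. Nr4a2 (Nurr1), which drives Th and the transporters, was at 45.7, 35.9, 55.9 and 36.3 CPM against 42.8 to 110.0 CPM (median 73.2), below all 60 in mouse 26 and mouse 58. Lmx1b was at 1.08, 1.34, 0.547 and 0.420 CPM against 0.644 to 3.72 CPM (median 1.87). Lmx1a, a floor plate factor that is also made in the subthalamic and posterior hypothalamic region, was at 13.8, 14.2, 20.8 and 14.7 CPM, inside the 10.04 to 32.5 CPM (median 21.4) of the 60 in each mouse. Otx2, a factor of forebrain and midbrain, was at 8.95, 7.36, 8.72 and 9.11 CPM, also inside the 5.86 to 14.3 CPM (median 9.75) of the 60.

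In the slope test 8 of the 9 factors rose with Th (11.2% of all genes did) and Lmx1a did not pass (slope 0.15 ± 0.08, adjusted p = 0.161, edgeR). The slopes were 1.09 ± 0.03 for En1, 1.06 ± 0.05 for Pitx3 and 0.96 ± 0.06 for En2, against 0.36 ± 0.05 for Foxa2 and 0.38 ± 0.05 for Otx2 (adjusted p = 6.46e-08, edgeR). For Otx2, the slope of the 60 carried on to the Th of the 4 libraries would give differences from the mean of -1.30, -1.55, -0.73 and -1.84, while the differences from their own label groups were -0.35, -0.32, -0.10 and -0.02. For En1 the carried-on slope gives -3.72, -4.43, -2.09 and -5.25 and the differences were -3.49, -4.76, -1.96 and -5.98. En1 thus lay near the line and Otx2 well above it, in a range of Th that the fit did not cover.

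Receptors and other proteins of dopamine neurons were low as well, except Slc17a6. Of 9 listed, 6 were below all 60 in all 4 libraries (0.614% of all genes were) and 8 rose with Th in the 60 (11.2% of all genes did). Chrna6 and Chrnb3, subunits of the nicotinic receptor on dopamine neurons, were at 35.6, 16.5, 66.9 and 5.57 CPM and 17.1, 6.03, 27.6 and 1.75 CPM, against 94.8 to 662 CPM (median 314) and 33.5 to 278 CPM (median 142) in the 60. Ret, the signalling receptor for glial cell line-derived neurotrophic factor, was at 141, 79.3, 236 and 83.9 CPM against 246 to 1113 CPM (median 686). The autoreceptor Drd2 was at 18.8, 15.4, 18.1 and 12.5 CPM against 22.5 to 94.1 CPM (median 58.2). Its values in the 4 were close together, although their Th differed over a range from 26.3 to 202 CPM.

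The remaining members were Sncg (gamma-synuclein, log2 difference -1.79), Gucy2c (guanylate cyclase 2C, -2.68), Ntsr1 (neurotensin receptor, -1.65) and Dlk1 (a Notch pathway ligand homologue, -1.48). Ntsr1 was inside the range of the 60 in mouse 26 and Dlk1 inside it in mouse 26 and mouse 34. Slc17a6, the vesicular glutamate transporter of subcortical neurons, was at 678, 496, 731 and 611 CPM, inside the 229 to 741 CPM (median 498) of the 60. It fell with Th in the 60 (slope -0.44 ± 0.05, adjusted p = 3.23e-11, edgeR).

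Outside the lists, the genes farthest below the 60 included genes of growth factors and enzymes. Wnt10b, a secreted Wnt ligand, was at 0.310, 0.114, 0.391 and 0.0701 CPM against 0.775 to 5.59 CPM (median 3.38). Aldh1a7, a relative of Aldh1a1 in sequence, was at 1.33, 2.25, 2.62 and 0.841 CPM against 3.05 to 57.1 CPM (median 18.8). Reads could be split between these paralogs, so its value is less certain. Fgf20, a fibroblast growth factor, was at 0.867, 0.458, 1.21 and 0.105 CPM against 1.57 to 14.2 CPM (median 6.03). Ntf3, the gene of neurotrophin-3, was at 1.24, 0.801, 2.46 and 1.33 CPM against 3.27 to 18.8 CPM (median 10.7). Each of these had a slope on Th between 0.84 and 1.14 in the 60.

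Further genes below all 60 in all 4 that rose with Th in the 60 were Trpc6 (a cation channel, slope 0.88), Cyp26b1 (which breaks down retinoic acid, 0.83), Slc39a4 (a zinc transporter, 1.04), Tll1 (a metalloprotease, 0.79), Fam167a (0.97), Bnc2 (0.84), Cnpy1 (0.91), Smpx (0.71), Ferd3l (0.61) and Xirp2 (0.60). One that did not was Tfap2b, a transcription factor of the AP-2 family that marks other midbrain and hindbrain neurons. It was at 0.186, 0, 0.156 and 0 CPM in the 4 against 0.298 to 3.37 CPM (median 1.28) in the 60, and its slope on Th was 0.10 ± 0.14 (adjusted p = 0.66, edgeR). Tfap2b was thus below all 60 in each of the 4, while the test found no relation to Th among the 60. By p, the genes that followed Th most closely in the 60 also held Cadps2, a regulator of vesicle release (0.79 ± 0.03), and Cpne7, a calcium-binding copine (0.69 ± 0.03).

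**Figure D2:**
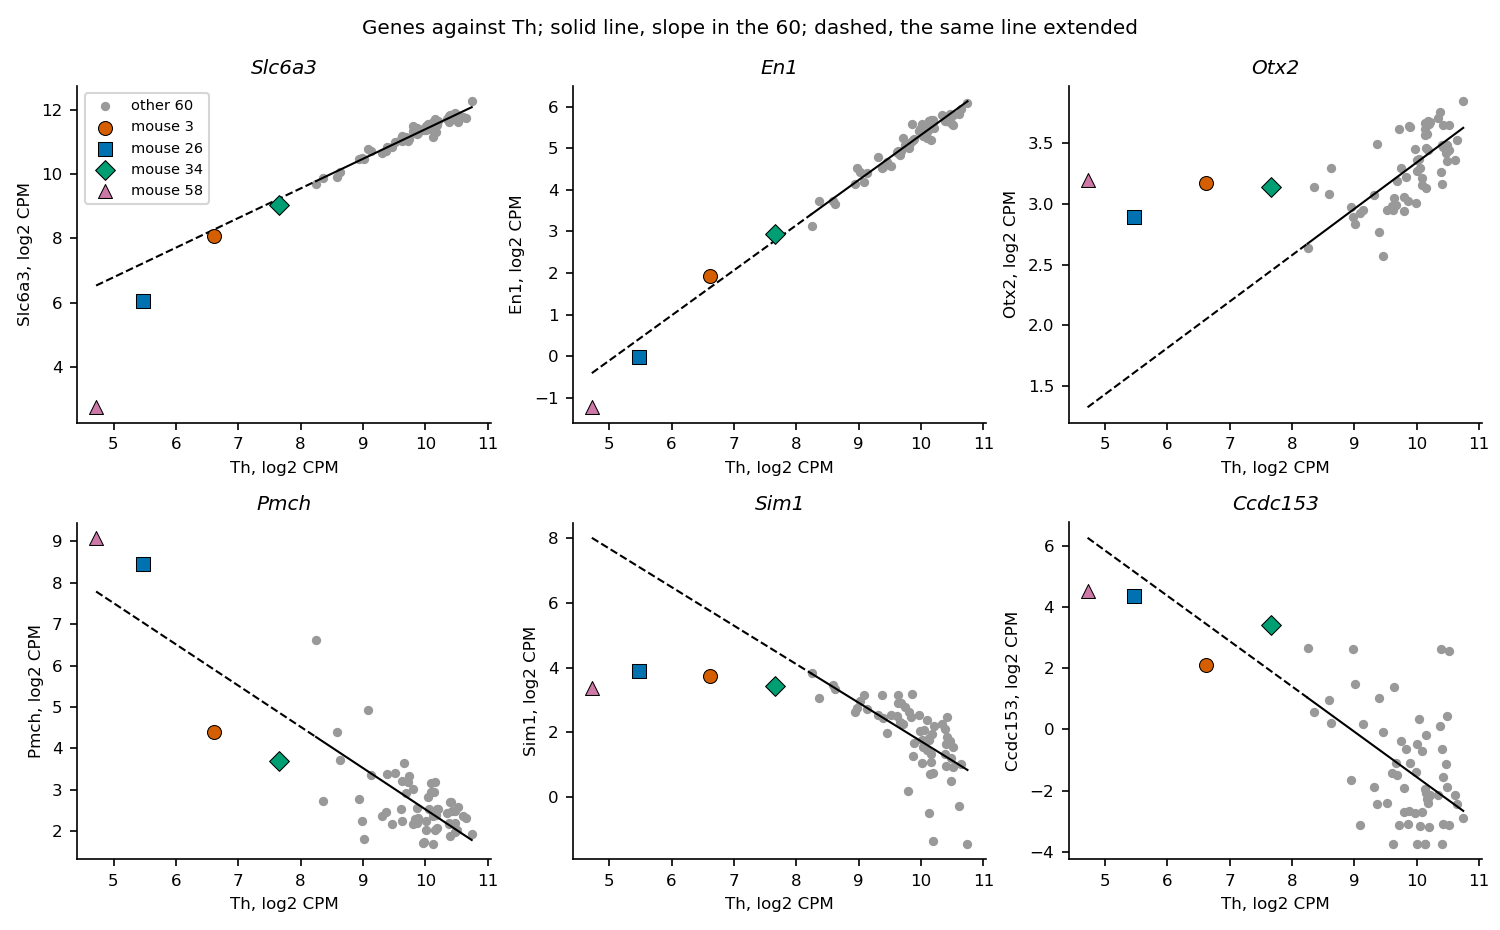
Levels of 6 genes (log2 CPM, y axes) against Th (log2 CPM, x axes), with the other 60 libraries in grey and the 4 libraries with low Th in colour. The solid line has the edgeR slope of the 60 and passes through their mean, and the dashed line carries it on. En1 lies close to the line in all 4, Slc6a3 lies below it in mouse 26 and mouse 58, Otx2 lies above it, and Sim1 lies below it.

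The peptides of the lateral hypothalamus set the 4 libraries apart from each other. Pmch was at 21.02, 349, 12.8 and 542 CPM in the 4, against 3.17 to 98.8 CPM (median 5.48) in the 60. In mouse 26 and mouse 58 it was above every other library, and in mouse 3 and mouse 34 it was above the median and within the range. Hcrt was at 1.33, 18.7, 0.821 and 42.2 CPM in the 4, against 0.0444 to 23.8 CPM (median 0.486) in the 60. Mouse 58 was above all 60, and mouse 26 was exceeded by VPA mutant replicate 7, at 23.8 CPM. That library, the lowest of the 60 in Th, was also the highest of the 60 in Pmch, Tac2 and Sim1.

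Pmch and Hcrt mark neurons whose cell bodies keep to a restricted area, and the 250 bases before their starts (RefSeq, GRCm38.p6) are shown with the letters TATAAA, the core of a TATA box, in capitals. They are chr10:88090822-88091071 on the plus strand for Pmch, with the box beginning 27 bases before the start, and chr11:100762932-100763181 on the minus strand for Hcrt, with the box 33 bases before it. TATAAA was searched on both strands and is in 12.4% of all 32851 promoter windows of this length. A match describes the sequence and shows no binding.
Pmch: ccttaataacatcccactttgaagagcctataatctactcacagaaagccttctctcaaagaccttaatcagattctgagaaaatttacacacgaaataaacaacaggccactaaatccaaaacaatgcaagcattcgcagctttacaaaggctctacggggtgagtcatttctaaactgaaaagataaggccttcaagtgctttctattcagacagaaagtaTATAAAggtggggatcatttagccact
Hcrt: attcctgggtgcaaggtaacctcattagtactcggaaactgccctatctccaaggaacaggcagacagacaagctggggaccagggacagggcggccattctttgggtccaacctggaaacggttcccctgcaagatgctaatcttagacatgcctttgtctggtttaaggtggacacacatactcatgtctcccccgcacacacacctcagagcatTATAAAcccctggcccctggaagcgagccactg

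In the other 60, Pmch fell with Th with a slope of -0.995 ± 0.14 (adjusted p = 1.36e-07) and Hcrt with a slope of -1.32 ± 0.24 (adjusted p = 2.49e-05, both edgeR). Across the same 60, Th and Pmch had r = -0.583 and rho = -0.420 (permutation p = 1e-05 and 0.00108, adjusted p = 1.33e-05 and 0.00144 over 4 relations). Th and Hcrt had r = -0.434 and rho = -0.311 (permutation p = 0.00059 and 0.0156, adjusted p = 0.00059 and 0.0156). Pmch and Hcrt had r = 0.738 and rho = 0.468 (permutation p = 1e-05 and 0.0002, adjusted p = 1.33e-05 and 0.0004). Without the 2 libraries farthest from the median on the x axis, r was -0.515, -0.374 and 0.505. Within the 23 libraries with the wildtype label, the relation of Th and Hcrt had r = -0.370 (permutation adjusted p = 0.0841), and within the 37 with the mutant label r = -0.458 (adjusted p = 0.0053).

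Of 8 listed lateral hypothalamic genes, 7 had enough counts. Of these, 6 had a higher mean in the 4 (median log2 difference 1.08, against 0.00 for all genes). In the 60, 5 fell with Th (10.7% of all genes fell). Nptx2, a pentraxin made by orexin neurons among others, was at 7.71, 13.2, 6.02 and 12.8 CPM against 1.71 to 9.08 CPM (median 3.96), above all 60 in mouse 26 and mouse 58. Gal (galanin) was at 2.17, 4.16, 2.11 and 2.56 CPM, inside the 0.298 to 6.69 CPM (median 1.31) of the 60. Cartpt, the gene of the CART peptides, which was also listed with Ucn for the Edinger-Westphal nucleus of the midbrain, went another way. It was at 32.2, 17.01, 107 and 15.6 CPM in the 4, against 7.57 to 427 CPM (median 66.4) in the 60, and so lower in mouse 26 and mouse 58, the libraries highest in Pmch. In the 60, Cartpt fell with Th (slope -1.08 ± 0.37, adjusted p = 0.027, edgeR), as did Gal (adjusted p = 0.00407, edgeR). Both calls were lost without the 2 libraries farthest in Th (adjusted p = 0.0521 and 0.0714, edgeR), and that of Gal also without VPA mutant replicate 7 (adjusted p = 0.0545, edgeR). Pdyn (prodynorphin) was at 11.9, 12.2, 7.78 and 15.6 CPM and Trh at 3.44, 6.64, 2.31 and 1.09 CPM, both inside the range of the 60 and with no call in the slope test.

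Among peptide genes of other hypothalamic nuclei, listed with the enzyme gene Hdc, Tac2 and Hdc were high and most others were not. Tac2, the gene of neurokinin B, was at 6.56, 31.01, 2.89 and 18.5 CPM against 0.270 to 15.5 CPM (median 1.10), and above all 60 in mouse 26 and mouse 58. Hdc makes histamine in the tuberomammillary nucleus, next to the mammillary bodies. It was at 8.70, 37.1, 10.9 and 15.7 CPM against 0.486 to 18.9 CPM (median 2.33), above the median of the 60 in all 4 and above all 60 in mouse 26. Both fell with Th in the 60, Tac2 with a slope of -1.29 ± 0.21 (adjusted p = 3.02e-06) and Hdc with a slope of -0.91 ± 0.27 (adjusted p = 0.0107, both edgeR). Without ACY957 wildtype replicate 6, the highest of the 60 in Hdc, the adjusted p of Hdc was 0.0852 (edgeR).

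Nms (neuromedin S) was at 1.30, 0.572, 3.67 and 3.01 CPM against 0.387 to 3.10 CPM (median 1.07), and above all 60 in mouse 34. Of the 8 listed genes with enough counts, 7 had a higher mean in the 4 (median log2 difference 0.37) and 3 fell with Th (10.7% of all genes did). The other 5 had no call. They included Pomc (3.31, 2.29, 3.67 and 2.84 CPM in the 4), Npy (4.61, 6.71, 4.34 and 7.32 CPM) and Crh (4.89, 3.78, 4.03 and 3.71 CPM), each inside the range of the 60 in every mouse. Agrp, a peptide of the arcuate nucleus, was at 0.0619, 0.114, 0.0391 and 0.0350 CPM against 0 to 0.535 CPM (median 0.214). It lay below the median of the 60 in all 4. Avp, Oxt, Kiss1, Npvf, Gnrh1 and Ucn3 did not pass the filter on low counts.

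Transcription factors of the hypothalamus and mammillary region mostly had a higher mean in the 4. Barhl1 is a homeobox gene of the mammillary and subthalamic region, and Sim1 is a factor of several hypothalamic nuclei and of the supramammillary and mammillary region. Sim1 was at 13.2, 14.8, 10.6 and 10.3 CPM against 0.292 to 14.3 CPM (median 4.09). Barhl1 was at 7.80, 9.88, 7.97 and 5.81 CPM against 0.373 to 8.87 CPM (median 3.80). Each of the 4 libraries lay above the median of the 60 in both genes, and mouse 26 above all 60 in both. Mouse 58, the highest of the 4 in Pmch, was the lowest of the 4 in both.

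Sim1 fell with Th in the 60, with a slope of -1.19 ± 0.17 (adjusted p = 2.39e-07), and Barhl1 with a slope of -0.56 ± 0.16 (adjusted p = 0.00673), both by edgeR. The slope of Sim1 carried on to the Th of the 4 would give differences of 4.08, 4.86, 2.30 and 5.76, and the differences from their own groups were 2.28, 1.59, 1.46 and 1.07. Its level in the 4 was near the 14.3 CPM of VPA mutant replicate 7, the library of lowest Th among the 60.

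Nkx2-1, a factor of the tuberal and mammillary hypothalamus, was at 2.32, 9.46, 1.72 and 2.49 CPM against 0 to 3.90 CPM (median 0.591). Nkx2-4, its close relative, was at 0.248, 2.02, 0.469 and 0.105 CPM, and Otp, a factor of neuroendocrine neurons, at 0.124, 2.63, 0.391 and 0.105 CPM. In all 3 genes mouse 26 stood above all 60 and the other 3 libraries were inside their range. Bsx, a homeobox gene needed by some feeding-related neurons, was at 0.124, 1.79, 0.313 and 0.245 CPM, and 0.124 CPM in mouse 3 is about 4 counts. Of the 15 listed factors with enough counts (6 of 21 did not pass), 14 had a higher mean in the 4 (median log2 difference 0.54) and 6 fell with Th in the 60 (10.7% of all genes did). These 6 were Sim1, Barhl1, Nkx2-1 (slope -1.08), Bsx (-1.92), Sim2 (-0.58) and Irx5 (-0.20). Bsx lost its call without VPA mutant replicate 7 (adjusted p = 0.0505, edgeR). Foxb1, a forkhead gene of the mammillary nuclei, was at 6.01, 8.89, 3.64 and 3.33 CPM against 1.55 to 15.1 CPM (median 3.30), with no call (adjusted p = 0.0809, edgeR). Six3, a factor of forebrain and anterior hypothalamus, was at 4.40, 2.71, 3.32 and 4.41 CPM, inside the 1.19 to 10.7 CPM (median 4.38) of the 60, with no call (adjusted p = 0.997, edgeR).

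The factors of forebrain GABA neurons were high in mouse 3, mouse 26 and mouse 58. All 9 listed genes had a higher mean in the 4 (median log2 difference 2.02), and in mouse 26 and mouse 58 their summed level exceeded that of every one of the 60, while mouse 3 lay near the top of their range. The sum was 16.3, 50.7, 7.19 and 36.4 CPM in the 4, against 1.67 to 18.7 CPM with a median of 4.50 in the 60. Dlx1, a homeobox gene of GABA neurons of the ventral forebrain, zona incerta and hypothalamus, was at 4.77, 14.95, 1.52 and 12.8 CPM against 0.139 to 6.89 CPM (median 0.828). Dlx5, Dlx6 and Sp8 were above all 60 in mouse 3, mouse 26 and mouse 58. Mouse 34 was inside the range of the 60 for all 9.

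Lhx6, a factor of GABA neurons from the medial ganglionic eminence and the zona incerta, was at 1.46, 10.03, 0.977 and 3.12 CPM against 0.0744 to 2.45 CPM (median 0.578). Its level was highest in mouse 26. Isl1 was at 0.929, 5.11, 0.821 and 3.61 CPM against 0.0371 to 3.68 CPM (median 0.520), and Lhx8, a factor of basal forebrain neurons, was inside the range of the 60 in each mouse (0.402, 0.153, 0.117 and 0.105 CPM). In the 60, 6 of the 9 fell with Th and 1, Sp9, rose, against 10.7% and 11.2% of all genes. The slopes were -1.07 ± 0.22 for Dlx1 (adjusted p = 0.000174) and -0.64 ± 0.18 for Sp8 (adjusted p = 0.0053), both by edgeR. Dlx2, Dlx5, Dlx6 and Isl1 also fell. Without VPA mutant replicate 7 these 4 lost the call (adjusted p = 0.141, 0.0645, 0.0671 and 0.103, edgeR), and without ACY957 wildtype replicate 6 so did Dlx2, Dlx5 and Isl1 (0.113, 0.109 and 0.0861). Dlx2 lost it without any 1 of 9 libraries.

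Sp9 ran in opposite directions. It was at 1.55, 6.41, 0.782 and 4.76 CPM in the 4, above all 60 in mouse 26 and mouse 58, yet in the 60 it rose with Th (slope 0.47 ± 0.15, adjusted p = 0.0193, edgeR), where its level was 0.183 to 2.27 CPM (median 0.897). With all 64 libraries in the fit its slope was -0.215. The general GABA neuron gene Slc32a1, the vesicular GABA transporter, was at 132, 240.0, 98 and 187 CPM in the 4 against 94.4 to 199.8 CPM (median 138) in the 60, above all 60 in mouse 26 and below their median in mouse 3 and mouse 34. It rose with Th in the 60 (slope 0.19 ± 0.04, adjusted p = 0.000103, edgeR). Gad1 and Gad2, which make GABA, were at 252, 416, 167 and 390.1 CPM and 253, 410.1, 173 and 333 CPM, and mouse 26 and mouse 58 were above the other 60 in Gad2, at 153 to 327 CPM (median 243).

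**Figure D3:**
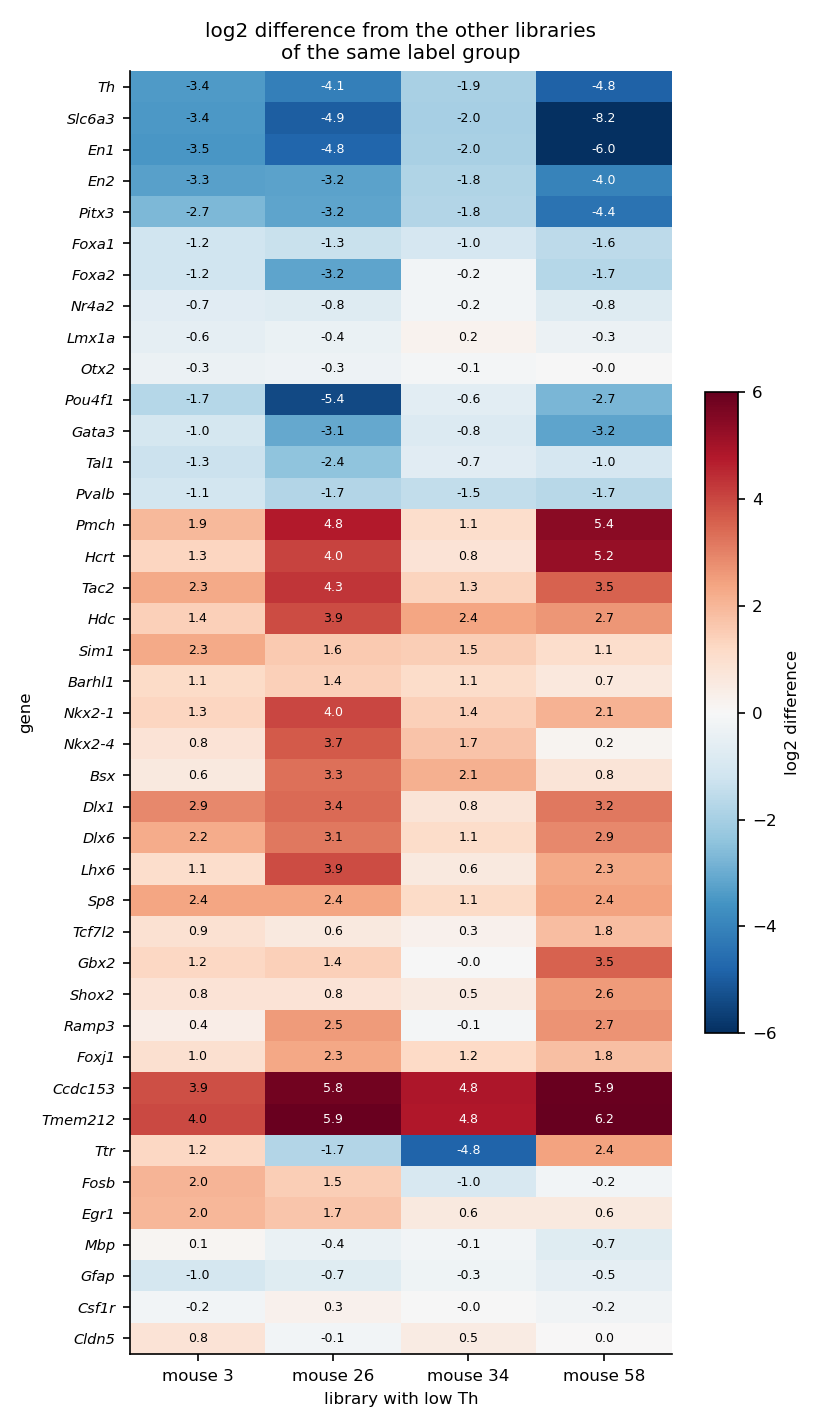
Log2 difference (colour and number) of each of the 4 libraries from the mean of the other libraries of its own treatment and genotype label (6 to 12 libraries), for 41 genes (rows). Most dopamine neuron genes at the top are low in all 4. Lmx1a is 0.19 above its group in mouse 34, and Otx2 is at -0.10 and -0.02 in mouse 34 and mouse 58. Hypothalamic, forebrain GABA and ependymal genes are high, and thalamic genes are highest in mouse 58. The genes of myelin, astrocytes, microglia and vessels at the bottom lie nearer 0.

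Genes of the thalamus, which lies above the VTA, were high in mouse 58 and in part in mouse 26. Shox2, a homeobox gene of thalamic neurons, was at 5.29, 7.32, 5.75 and 24.6 CPM against 0.709 to 10.2 CPM (median 3.31). Tcf7l2, a Wnt pathway factor of thalamus and habenula, was at 25.4, 25.98, 22.5 and 62.2 CPM against 6.005 to 38.2 CPM (median 16.9). Gbx2, which thalamic neurons use in development, was at 0.495, 0.877, 0.274 and 4.06 CPM against 0 to 1.46 CPM (median 0.208). In these 3 genes mouse 58 stood above all 60 and the other 3 libraries were within the range. Gbx2 and Shox2 were also among the genes in which mouse 58 stood farthest above all other 63 libraries, together with Lhx9 (7.15 CPM, against at most 3.39 in the 60), Anxa8 (4.97 against 2.14) and Slc5a8 (2.21 against 0.879).

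Ramp3, a receptor activity-modifying protein, was at 4.52, 20.9, 2.97 and 23.1 CPM against 1.37 to 5.69 CPM (median 3.41), and Prkcd, protein kinase C delta, at 6.04, 12.4, 4.30 and 11.7 CPM against 3.45 to 7.87 CPM (median 5.42). Both were above all 60 in mouse 26 and mouse 58. For Ramp3 no slope on Th was called among the 60 (0.00 ± 0.10, adjusted p = 0.99, edgeR), and Prkcd rose with Th (slope 0.27 ± 0.05, adjusted p = 6.47e-05, edgeR). With all 64 libraries Prkcd had a slope of -0.0639 and no call (adjusted p = 0.211, edgeR). Of the 10 listed thalamic genes, 9 had a higher mean in the 4 (median log2 difference 0.66). In the 60, 1 of the 10 (Prkcd) rose with Th and 1 (Ntng1) fell, near the 11.2% and 10.7% of all genes. The call of Ntng1 (slope -0.11 ± 0.04, adjusted p = 0.0471, edgeR) was lost without any 1 of 30 libraries. The summed level of the list was 114, 139.8, 116 and 223 CPM in the 4, against 74.5 to 138 CPM with a median of 106 in the 60.

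Genes of other midbrain neurons were low in part of the 4. Gata3 and Tal1, factors of GABA neurons of the midbrain beside and behind the VTA, were at 3.13, 0.648, 3.60 and 0.595 CPM and 5.42, 1.95, 7.47 and 5.39 CPM, against 2.85 to 11.4 CPM (median 6.08) and 5.06 to 22.2 CPM (median 12.5) in the 60. All 5 listed genes of these neurons had a lower mean in the 4 (median log2 difference -1.41). Of these, 2 rose with Th in the 60, Tal1 (0.38 ± 0.07) and Sox14 (0.46 ± 0.15), where 11.2% of all genes did. Gata2, another factor of the list, lay nearer to the 60. It was at 6.28, 4.27, 8.17 and 7.11 CPM against 4.54 to 11.2 CPM (median 7.17). Pvalb, made by fast-spiking neurons that include those of the red nucleus and substantia nigra, was at 83.3, 43.4, 70.4 and 45.1 CPM against 59.9 to 377 CPM (median 152), with a slope of 0.11 ± 0.13 (adjusted p = 0.63, edgeR). Pou4f1 (Brn3a), a factor of the red nucleus and the medial habenula, was at 2.29, 0.0763, 4.73 and 0.876 CPM against 2.29 to 16.3 CPM (median 6.87), with a slope of 0.12 ± 0.16 (adjusted p = 0.636, edgeR). Both were lower in mouse 26 and mouse 58 than in the other 60, without a relation to Th being found among the 60.

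The nicotinic subunit Chrna5, which is made in dopamine neurons and the interpeduncular nucleus, was at 2.66, 1.87, 3.01 and 0.666 CPM against 5.04 to 41 CPM (median 20.4), below all 60 in all 4. It rose with Th (slope 0.90 ± 0.06, edgeR adjusted p = 1.77e-18), as did its neighbour in the genome, Chrna3 (0.58 ± 0.05). Chrnb4, the third gene of that cluster, was at 0.991, 1.95, 1.45 and 0.736 CPM, inside the 0.280 to 2.79 CPM (median 1.14) of the 60. Ucn, the gene of urocortin in the Edinger-Westphal nucleus of the dorsal midbrain, was at 1.11, 0.0763, 3.75 and 0.385 CPM against 0 to 19.6 CPM (median 2.13). Mouse 34 lay above the median of the 60 in Ucn and the other 3 below it. Of the serotonin neuron genes, Tph2 was at 0.526, 0.648, 1.02 and 1.12 CPM and Slc6a4 at 0.0310, 0.114, 0 and 0 CPM, against medians of 1.61 and 0.0722 CPM in the 60. That list also holds Ddc and Slc18a2, which make up most of its sum.

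The ependymal genes Foxj1, Ccdc153, Tmem212 and Rarres2 lay above the median of the 60 in all 4 libraries, and most genes of motile cilia had a higher mean in the 4. Ccdc153 and Tmem212, both markers of ependyma, were at 4.18, 20.4, 10.5 and 22.9 CPM and 3.75, 19.7, 8.68 and 22.8 CPM in the 4, against 0 to 6.30 CPM (median 0.196) and 0 to 6.25 CPM (median 0.251) in the 60. Mouse 26, mouse 34 and mouse 58 were above all 60, and mouse 3 was above the medians and inside the ranges. The highest Ccdc153 of the 60 was in VPA mutant replicate 7, with Th at 304 CPM. The highest Tmem212 was in ACY957 vehicle mutant replicate 3, with Th at 1336 CPM. Foxj1, the master regulator of motile cilia, was at 10.5, 32.7, 15.6 and 22.7 CPM against 3.97 to 16.2 CPM (median 6.18). Sntn (sentan), a protein of the tip of motile cilia, was at 1.39, 3.74, 1.72 and 6.02 CPM against 0 to 1.39 CPM (median 0.0399), and above all 60 in each of the 4, in mouse 3 only just. Among the 30 genes with all 4 libraries above all 60 (0.192% of 15634), Tekt1, a tektin of the ciliary axoneme, was at 4.74, 8.51, 5.28 and 8.58 CPM against 1.69 to 4.07 CPM (median 2.90). Tmem107, of the ciliary transition zone, was at 8.42, 16.1, 8.09 and 15.2 CPM against 4.17 to 7.72 CPM (median 5.87). The kinase Nek5 was at 0.712, 2.33, 0.704 and 1.51 CPM against 0 to 0.528 CPM (median 0.125).

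Symbols of axonemal dyneins and their assembly factors, radial spoke, tektin and cilia-associated proteins gave a list of 49 genes, chosen by name after these values had been seen. Of these, 47 had enough counts, 43 had a higher mean in the 4, and the median log2 difference was 1.20. The filter on low counts used all 64 libraries, so genes high only in the 4 could pass it. A low-level member was Cfap221, at 0.155, 1.26, 0.235 and 1.65 CPM against 0 to 0.561 CPM (median 0) in the 60. The summed level of all 49 was 324, 419, 359.9 and 440.4 CPM in the 4, against 258 to 329 CPM (median 283) in the 60. All but mouse 3 exceeded the highest of the 60. Among the 60, however, 11 of the 47 fell with Th, 2 rose (Dnah17 and Dnah7a) and 34 had no call, so that 23.4% fell, against 10.7% of all genes.

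The promoters of Sntn and Ccdc153 are shown because both genes were near 0 in most of the 60. They are the 250 bases before the start in RefSeq (GRCm38.p6), chr14:13670626-13670875 for Sntn and chr9:44240427-44240676 for Ccdc153, both on the plus strand. The capitals mark GTTGCC, a core of the X-box motif that RFX factors of cilia genes bind, which begins 66 and 152 bases before the start. GTTGCC was searched on both strands and is in 10.4% of all 32851 promoter windows. For the cilia list only the first window of each matched gene was counted, and it is in 13 of these 44 (29.5%). A match is a description of letters, not a site.
Sntn: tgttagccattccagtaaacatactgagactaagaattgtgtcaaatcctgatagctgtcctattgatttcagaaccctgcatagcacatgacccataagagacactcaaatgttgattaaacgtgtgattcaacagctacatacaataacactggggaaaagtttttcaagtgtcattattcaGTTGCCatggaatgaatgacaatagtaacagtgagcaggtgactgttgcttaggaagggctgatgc
Ccdc153: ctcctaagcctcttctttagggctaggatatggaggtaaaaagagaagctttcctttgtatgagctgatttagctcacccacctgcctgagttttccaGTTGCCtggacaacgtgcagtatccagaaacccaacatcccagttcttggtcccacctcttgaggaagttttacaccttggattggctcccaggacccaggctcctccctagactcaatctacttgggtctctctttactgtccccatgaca

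In the slope test Ccdc153 (-1.48 ± 0.37, adjusted p = 0.00228), Tmem212 (-1.56 ± 0.38, adjusted p = 0.00153) and Sntn (-1.64 ± 0.43, adjusted p = 0.00311) fell with Th (edgeR). Without the 2 libraries farthest from the median Th these calls were lost (adjusted p = 0.128, 0.103 and 0.063, edgeR), and that of Ccdc153 also without VPA mutant replicate 7 (adjusted p = 0.0606). For Foxj1 the slope was -0.07 ± 0.09 (adjusted p = 0.63, edgeR) and for Tekt1 -0.04 ± 0.06 (adjusted p = 0.68). Both genes were high in the 4 libraries, and no relation to Th was found for either in the others.

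Choroid plexus genes did not all lie on 1 side of the median of the 60. Ttr (transthyretin), which choroid plexus makes in great amounts, was at 13.5, 1.26, 0.274 and 23.8 CPM, against 0.0746 to 430.0 CPM (median 3.44) in the 60. Kcnj13 was at 0.0310, 0, 0 and 0.175 CPM, and Aqp1, a water channel of choroid plexus, at 0.186, 0.114, 0 and 0.315 CPM against 0.0859 to 5.13 CPM (median 0.930). Aqp1 rose with Th in the 60 (slope 0.85 ± 0.19, adjusted p = 0.0007, edgeR). Folr1, a folate receptor of choroid plexus and ependyma, was at 1.05, 1.98, 1.52 and 4.66 CPM against 0 to 6.11 CPM (median 0.316). Kl (klotho) was at 4.49, 4.77, 3.13 and 5.29 CPM against 0.684 to 28.5 CPM (median 2.59), and Clic6, a chloride channel protein, at 10.6, 19.6, 11.3 and 8.58 CPM against 3.10 to 19.1 CPM (median 8.37). Folr1, Kl and Clic6 lay above the median of the 60 in all 4 libraries, and Clic6 above all 60 in mouse 26. Kcnj13 was below the median in mouse 3, mouse 26 and mouse 34, and Aqp1 in all 4.

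**Figure D4:**
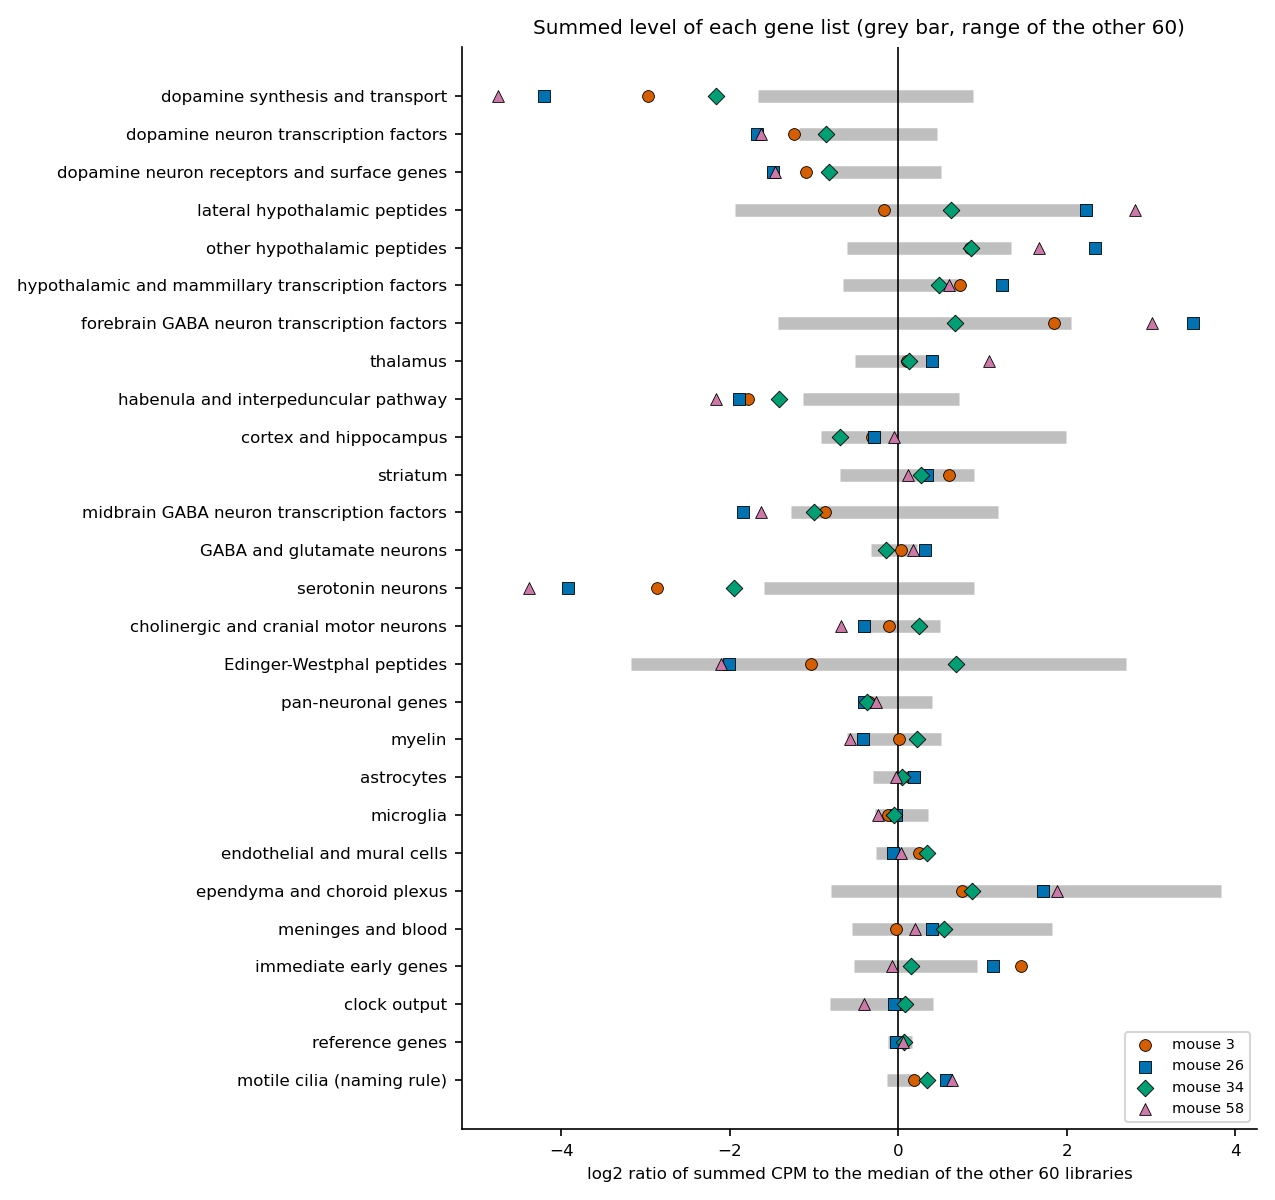
Summed CPM of each gene list in the 4 libraries with low Th (coloured symbols), as log2 ratio to the median of the other 60 (x axis), with the range of the 60 as a grey bar. Dopamine lists lie to the left in all 4, motile cilia genes to the right of the bar in 3, and forebrain GABA factors and thalamic genes to the right of it in mouse 26 and mouse 58. The serotonin list shares Ddc and Slc18a2 with the dopamine list.

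Other genes above all 60 in all 4 libraries were neither peptide nor cilia genes. Nr2f2 (COUP-TFII), a nuclear receptor of the hypothalamus, thalamus and amygdala, was at 44.7, 50.9, 46.9 and 80.6 CPM against 9.36 to 44.4 CPM (median 23.6). Sfrp2, a secreted Wnt antagonist, was at 12.7, 16.7, 11.02 and 14.6 CPM against 3.63 to 9.45 CPM (median 5.36). Both fell with Th in the 60, Nr2f2 with a slope of -0.54 ± 0.07 (adjusted p = 4.89e-08) and Sfrp2 with a slope of -0.42 ± 0.06 (adjusted p = 3.76e-08, both edgeR). Doc2a, a calcium sensor of synaptic vesicles, was at 37.7, 39.6, 36.5 and 35.03 CPM against 7.99 to 34.9 CPM (median 20.7), with a slope of -0.52. Ezr (ezrin), a membrane to actin linker of astrocytes and epithelia, was at 28.9, 37, 24.98 and 30.5 CPM against 11.5 to 21.6 CPM (median 15.5), with a slope of -0.18. Tspan18, Dsc3 and Smkr-ps also fell with Th. Pappa2 and Ccdc121 fell too, but lost the call without any 1 of 42 and of 9 libraries (adjusted p up to 0.101 and 0.118, edgeR). Cd36, the fatty acid transporter, was at 5.20, 9.54, 4.93 and 8.02 CPM against 1.32 to 4.80 CPM (median 2.77), with no call (-0.21 ± 0.10, adjusted p = 0.125, edgeR).

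The genes that fell with Th most clearly by p in the 60 included genes of synapses, ion channels and splicing. Syn2, the vesicle protein synapsin II, had a slope of -0.33 ± 0.02 (adjusted p = 5.71e-17, edgeR) and was at 469, 498, 404 and 489 CPM in the 4, above all 60, at 185 to 392 CPM (median 285). Kcnip1, a potassium channel partner, had a slope of -0.39 ± 0.04 and was at 60.9, 61.3, 60.4 and 64.6 CPM, inside the 27.6 to 67.5 CPM (median 40.3) of the 60. Gabra5, the GABA-A receptor subunit alpha 5, had a slope of -0.47 ± 0.05 and was at 62.2, 58.97, 49.9 and 61.4 CPM. The splicing factor Rbfox1 (-0.40 ± 0.04) and the surface protein Cd83 (-0.51 ± 0.05) fell too, as did Lrrtm4, Kctd8, Pgr15l, Rwdd2a and, as above, Slc17a6.

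No gene was called for a slope on Th that differed between the wildtype and mutant labels (0 of 15633, 0%, by edgeR, 682 at an unadjusted p under 0.05). DESeq2 also called 0 (699 unadjusted) and limma voom 0 (702 unadjusted). With the labels fitted apart, the wildtype label alone gave 608 rising and 421 falling genes, and the mutant label alone 1201 rising and 841 falling.

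Lists of cell types that fill every brain region had medians over the 4 libraries within 0.20 of that of all genes. The median log2 difference between the 4 and the 60 was -0.09 for microglia (12 genes), 0.09 for vessels (12), 0.10 for astrocytes (10), -0.20 for myelin (12) and 0.07 for reference genes (12), against 0.00 for all genes. The mean was lower in the 4 for 11 of the 12 myelin genes and 10 of the 12 microglia genes. It was higher for 11 of the 12 vessel genes, 7 of the 10 astrocyte genes and 9 of the 12 reference genes. The vessel sums were 642, 519, 687 and 553 CPM against 451 to 663 CPM (median 541), above all 60 in mouse 34. The myelin sums were 15563, 11524, 18091 and 10395 CPM, against 10126 to 21926 CPM with a median of 15462 in the 60. Those of mouse 26 and mouse 58 were in the lower part of this range. Against their own label groups, the myelin medians of the 4 were -0.07, -0.66, 0.24 and -0.63. Mouse 26 was below all 60 in Mobp, Mag, Cnp, Mal and Aspa, and mouse 58 in Mbp and Mobp. Mouse 34 was above all 60 in Mal and Cldn11. Of the 12 myelin genes, 3 fell with Th in the 60, where 10.7% of all genes did. Of the 10 astrocyte genes, 3 fell and 2 rose, where 11.2% of all genes rose. The calls of Slc1a3 and Slc4a4 were lost without any 1 of 34 and of 21 libraries. Pan-neuronal genes had a median of -0.42, and their sum was 4703, 4514, 4617 and 4973 CPM against 4731 to 7915 CPM with a median of 5978, below the 60 in all but mouse 58. Of these, Syt1, a calcium sensor of vesicle release, rose with Th (0.43 ± 0.03, adjusted p = 1.31e-15, edgeR) and the neuronal nuclear marker Rbfox3 fell (-0.18 ± 0.04, adjusted p = 0.000859, edgeR). Genes of cortex and hippocampus (median 0.01) and of striatum (0.14) were inside the range of the 60 by their sum. Their part in the results above was not tested.

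The 4 libraries differed in which genes were high. Mouse 58 had 958 genes above all 60 (6.13%) and 636 below (4.07%), and was high in Pmch, Hcrt, thalamic and cilia genes, with 6.66 CPM of Slc6a3. Mouse 26 had 1184 above (7.57%) and 811 below (5.19%), and was high in Pmch, Tac2, Hdc, Nkx2-1, Lhx6 and cilia genes. Mouse 3 had 504 above (3.22%) and 663 below (4.24%), with Dlx5, Dlx6 and Sp8 high and peptide genes inside the range of the 60. Mouse 34 had 441 above (2.82%) and 450 below (2.88%), with Ccdc153 and Tmem212 above all 60 and forebrain GABA factors inside the range. Over all genes, the correlation of log2 levels between any pair of the 4 was 0.982 to 0.987. The same counts and correlations are not given for single libraries of the 60. These values therefore do not show how far each of the 4 differs from an ordinary library.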

How the data were processed

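Poly(A) RNA of 64 punches was sequenced with TruSeq Stranded kits on a NextSeq 500 (75-base reads, per the labels' protocols). The deposited values are raw read counts per gene symbol. Per the design text, reads were aligned to mm10 with TopHat2 2.0.9 and counted with HTseq 0.6.1, while the submitters' processing notes name Trimmomatic, HISAT2 and HTSeq, so the aligner is uncertain. Of 24421 genes, 15634 passed edgeR's filterByExpr, run on all 64 libraries, so genes high only in the 4 could pass. The log2 CPM used TMM factors with a prior count of 2. Slopes on Th were fitted in 60 libraries with glmQLFit and glmQLFTest (edgeR 4.0.16, R 4.3.3) with 8 group means, with Benjamini-Hochberg adjustment at 0.05, and were tested on simulated data. DESeq2 1.42.0 and limma 3.58.1 were alternatives. Correlations used 100000 permutations in scipy 1.17.1. The 4 libraries, the markers and the lists were chosen with earlier results of these data known. Named genes are list members, the 15 farthest above or below among genes with no overlap, the 10 smallest slope p in each direction, and the 5 farthest above all others in each library, without predicted genes. 1 gene of each of 2 lists is not reported here and was left out of their counts and sums. The cilia list and Spearman's rho were added after seeing the data. Mice are the replicates, per the design text, and no pair of libraries in a group agreed within counting noise. Symbols were placed with GENCODE M21 (23376 matched).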

Additional observations from a re-analysis of the deposited data

How the results depend on the processing

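With the threshold at 7.5 log2 CPM of Th, which leaves out mouse 34, 87 genes were above all other libraries in all of the low ones. At 8.5, which adds VPA mutant replicate 7 and VPA vehicle mutant replicate 2, there were 2, and 29 below. The number of low libraries differs between these settings, so their counts are not like for like. Leaving out 1 of the 4 libraries gave 34 to 145 genes above and 113 to 175 below. It was 145 above without VPA wildtype replicate 3 (mouse 3), and 107 above and 175 below without VPA vehicle mutant replicate 3 (mouse 34). With the same 60 and fewer low libraries, these counts could not fall below the 30 and 96 of all 4. They therefore do not test stability. Slope counts were 608 rising and 421 falling with the wildtype label only and 1201 rising and 841 falling with the mutant label only, where fewer libraries were fitted. Leaving out each of the 60 in turn gave 1584 to 1872 rising and 1443 to 1769 falling. The 4 relations gave r of 0.976 to 0.980 (Th with Slc6a3), -0.587 to -0.577 (Th with Pmch), -0.440 to -0.431 (Th with Hcrt) and 0.731 to 0.753 (Pmch with Hcrt) when single libraries of the small groups were left out. These were the 8 libraries of the wildtype vehicle groups. VPA mutant replicate 7, the highest of the 60 in Pmch and Hcrt, was not left out alone. These ranges therefore do not show how far r rests on that library. Th with Hcrt gave r of -0.370 with the wildtype label only and did not pass. By Spearman's rho, the 3 relations of Th with Pmch, Th with Hcrt and Pmch with Hcrt did not pass with the wildtype label only (permutation, adjusted p = 0.118 for each), nor Th with Hcrt with the mutant label only (adjusted p = 0.0862). With all 64 libraries, the slopes of Sp9 (-0.215), Prkcd (-0.0639), Slc32a1 (-0.00889), Aspa (0.00744) and Cldn11 (0.0154) turned sign. Only that of Sp9 was called (adjusted p = 0.0451, edgeR). The adjusted p was 0.211 for Prkcd, 0.851 for Slc32a1, 0.919 for Aspa and 0.747 for Cldn11 (edgeR), so these lost the call. The cause was not tested. Of 119 named genes with a call, 119 kept it with DESeq2, 116 with limma voom, 102 without the 2 libraries farthest from the median Th, 96 whichever single library was left out, 83 with the mutant label only and 71 with the wildtype label only. List medians moved by less than the spread under every alternative run, except the pan-neuronal median without VPA wildtype replicate 3 (-0.35). RLE size factors shifted the median of all genes to 0.01 and library totals to 0.02. No paired analysis was possible because the mouse numbers are unique and the replicate numbers within groups only follow accession order. The 60 libraries limit slopes of genes near 0 CPM, such as Sntn and Bsx, where a few counts set the value.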

Other observations

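Immediate early genes, which neurons switch on with activity, were high in mouse 3 and mouse 26 and not in the other pair. Egr1 was at 58.98, 41.2, 20.6 and 19.7 CPM in mice 3, 26, 34 and 58, against 5.74 to 27.4 CPM (median 12.4) in the other 60, and Fosb at 6.63, 3.59, 0.821 and 1.09 CPM against 0.428 to 3.62 CPM (median 1.32). The sum of 8 such genes was 174, 139, 70.8 and 60.1 CPM, against 44.2 to 122 CPM with a median of 63.5 in the 60. Of the 8, 3 fell with Th in the 60, where 10.7% of all genes did. They were Egr1 (slope -0.45 ± 0.12, adjusted p = 0.00397, edgeR), Fosb and Junb. Fosb lost its call without VPA vehicle mutant replicate 2 (adjusted p = 0.0563, edgeR) and Junb without any 1 of 21 libraries (adjusted p up to 0.105, edgeR). Both lost it without the 2 libraries farthest from the median Th (adjusted p = 0.0509 and 0.0676, edgeR). The clock output genes Dbp and Per2 were at 36.7, 43.3, 63.6 and 35.4 CPM and 10.7, 8.20, 5.75 and 2.38 CPM, inside the ranges of the 60.

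Mouse 26 held 44.6 CPM of Alas2, the haem synthesis enzyme of red blood cells, against at most 16.9 in the 60, and mouse 34 held 17.1 CPM. The pituitary hormone genes Prl and Gh were at 2.17, 1.22, 0 and 0.0350 CPM and 0.743, 1.91, 0 and 0 CPM in the 4, and at most 3.83 and 3.83 CPM in the 60. Fibcd1, a chitin-binding receptor, was at 20.8, 28.9, 23.7 and 34.5 CPM against 5.99 to 25.98 CPM (median 12.6) and fell with Th (-0.45 ± 0.09, adjusted p = 7.66e-05, edgeR), whereas C1ql2, a synaptic organiser, was at 22.1, 18.7, 30.9 and 19.1 CPM against 21.4 to 263 CPM (median 60.8) and rose with Th (0.59 ± 0.20, adjusted p = 0.0249), a call lost without any 1 of 4 libraries (adjusted p up to 0.0663). Genes farthest above all other 63 libraries in mouse 34 were Slc38a4 (2.85 CPM, at most 1.60 in the 60), Med9os, Mfap1b, Tmem220 and Il1r2. In mouse 3 they were Fosb, Egr1, Tbx4, Mogat1 and Prr19, and in mouse 26 Apobec2, Lhx6, Nkx2-4, Alas2 and Nkx2-1.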
